A study of Homo sapiens with 14 samples.

Results

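A set of 10 SOX genes that mark neural progenitors and young neurons were read in 14 RNA libraries made from cells of the medial ganglionic eminence (MGE) type. The set is a list of symbols with no threshold on measured values, drawn up with earlier results of these data known: SOX1, SOX2, SOX3, SOX4, SOX5, SOX8, SOX9, SOX11, SOX12 and SOX21, which are 10 of the 58051 genes listed in the count table. All 10 were found by Ensembl identifier, and all 10 passed the filter on low values (10 or more normalized counts in 3 or more libraries), as did 17102 genes in all.

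All libraries came from H9, an established human embryonic stem cell line, differentiated for 25 days. The cells formed embryoid bodies under SB431542 (2 µM) and LDN193189 (200 nM), which block TGF-β and BMP signalling, until day 6. Ventral identity was then induced with SHH (250 ng/mL) and the smoothened agonist purmorphamine (0.3 µM) between days 10 and 17, and the neural progenitors were kept as floating spheres until collection. Of the 4 groups, the wild-type group (WT, n = 3) carried no engineered allele by its label. The knockout group (KO, n = 5) was labelled Ctnnb1 knockout, the gene of β-catenin. Another line carried an inducible Ctnnb1 overexpression construct and was collected without doxycycline (uninduced, n = 3) or after doxycycline (0.1 µg/mL, days 17 to 25; induced, n = 3). Doxycycline was given only to cells with the construct, and its own effect cannot be told apart from that of the transgene. The promoter of the construct, the part of the gene removed, the number of clones and whether replicates were separate differentiations are not given in the sources used here; p-values therefore measure the spread between these samples, which may be technical.

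SOX proteins bind DNA through a high-mobility-group (HMG) box, a domain also found in the TCF and LEF factors that carry β-catenin to its target genes. The SoxB1 factors (SOX1, SOX2, SOX3) keep neural progenitors undifferentiated, and the SoxB2 factor SOX21 counteracts them. SoxC factors (SOX4, SOX11, SOX12) act in cells that leave the cycle and become neurons, the SoxD factor SOX5 lacks a transactivation domain and acts in postmitotic neurons and cartilage, and the SoxE factors SOX8 and SOX9 act in radial glia and glia.

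Values are the deposited normalized counts, that is, reads divided by 1 size factor per library. The libraries held 5233270 to 5639725 reads assigned to genes, and 3 reads, the limit that a count of 0 allows, corresponded to a normalized count of 2.60 to 2.84. CTNNB1 averaged 3814 ± 573 (SD, n = 3) in WT, 2383 ± 271 (SD, n = 5) in KO, 3345 ± 276 (SD, n = 3) in the uninduced line and 27060 ± 3820 (SD, n = 3) in the induced line. The KO and induced libraries lay outside the control range in the labelled direction, and the knockout lowered the transcript without removing it. Of 10 MGE markers (such as NKX2-1, LHX6 and LHX8), none was at or under the floor in all libraries of the WT, KO or uninduced group, SIX6 was under it in WT 3, and their summed normalized count ranged from 1546 to 2016 in WT, 4955 to 5549 in KO, 3386 to 5392 in the uninduced line and 559 to 1245 in the induced line.

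The 10 genes lie on separate chromosomes except SOX1 and SOX21, both on chromosome 13, and 7 of them (SOX1, SOX2, SOX3, SOX4, SOX11, SOX12, SOX21) are single-exon genes in GENCODE 44 (hg38). SOX1 (ENSG00000182968) spans chr13:112067149-112071706 on the plus strand, SOX2 (ENSG00000181449) chr3:181711925-181714436 (plus), SOX3 (ENSG00000134595) chrX:140502985-140505069 (minus), SOX21 (ENSG00000125285) chr13:94709622-94712545 (minus), SOX9 (ENSG00000125398) chr17:72121020-72126416 (plus) and SOX11 (ENSG00000176887) chr2:5692384-5701385 (plus).

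The promoters of 4 members are shown first because 3 of these genes fell with induction (SOX1, SOX3, SOX21) and 1 did not pass the test in any comparison (SOX2). Of the 10 members, 7 matched an entry by symbol in RefSeq (GRCh38.p14). Each line gives the 250 bases before the transcription start, 5′ to 3′ on the gene's strand. Capitals mark a CCAAT or TATAAA match on either strand. The windows are chr13:112066899-112067148 (plus strand), chr3:181711675-181711924 (plus), chrX:140505070-140505319 (minus) and chr13:94712546-94712795 (minus).
SOX1: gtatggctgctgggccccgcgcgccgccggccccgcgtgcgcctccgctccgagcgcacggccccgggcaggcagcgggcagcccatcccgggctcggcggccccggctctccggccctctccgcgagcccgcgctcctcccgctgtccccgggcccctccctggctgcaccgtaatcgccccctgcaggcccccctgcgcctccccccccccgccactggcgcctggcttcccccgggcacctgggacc
SOX2: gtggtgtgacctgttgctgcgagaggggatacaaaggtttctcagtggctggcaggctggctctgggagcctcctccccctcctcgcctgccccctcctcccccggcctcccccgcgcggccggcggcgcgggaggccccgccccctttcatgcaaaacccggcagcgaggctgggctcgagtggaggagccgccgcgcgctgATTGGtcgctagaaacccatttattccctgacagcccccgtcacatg
SOX3: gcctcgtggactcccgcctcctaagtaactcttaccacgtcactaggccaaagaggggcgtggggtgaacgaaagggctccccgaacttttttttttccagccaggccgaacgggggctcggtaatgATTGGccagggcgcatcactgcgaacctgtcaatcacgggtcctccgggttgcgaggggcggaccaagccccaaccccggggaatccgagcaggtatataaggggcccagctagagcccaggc
SOX21: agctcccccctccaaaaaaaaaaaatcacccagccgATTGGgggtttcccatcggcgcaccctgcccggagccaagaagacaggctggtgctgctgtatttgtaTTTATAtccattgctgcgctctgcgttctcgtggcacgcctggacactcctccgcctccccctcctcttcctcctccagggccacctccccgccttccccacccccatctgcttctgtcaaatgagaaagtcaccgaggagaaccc
The TCF/LEF core TCAAAG was in none of the 7 member windows and in 11.2% of 35116 RefSeq windows of the same length. The SOX core ACAATG was found in SOX5 alone, at 2 positions, against 9.29% of all windows. CCAAT was in the windows of SOX2, SOX3, SOX4, SOX12 and SOX21, with 4 matches in SOX4, against 32.0% of all windows. TATAAA was in SOX21 alone, on the opposite strand at position -146 from the start, against 10.7%. The SOX3 window holds the related string TATATAA near its end, which the search did not count. The motifs were searched on both strands as exact strings only, and none contains another. Variant forms were not counted, such as TACAAAG in the SOX2 window, so a missing match does not show that a site is absent. GC content was 82.0% in the SOX1 window, 68.8% in SOX2, 61.6% in SOX3 and 58.8% in SOX21, against a median of 58.0%, and CpG sites numbered 31, 20, 17 and 11 in the same order, against a median of 11. None of the 4 motifs searched was in the windows of all 3 genes shown here that fell. SOX4 and SOX5, which also fell, have windows that are not shown.

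**Figure D1:**
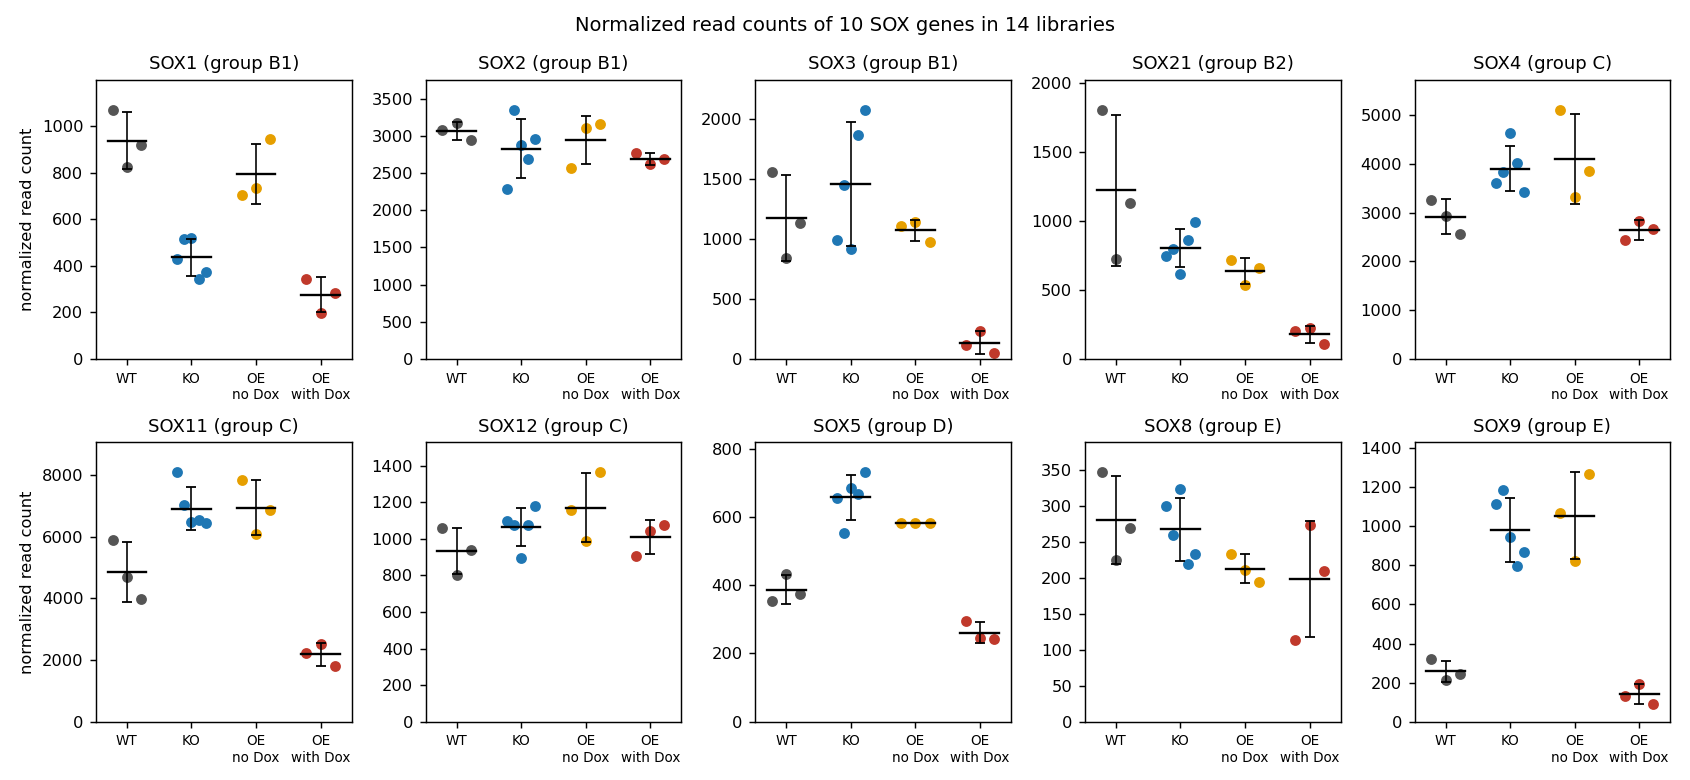
Normalized count (y axis, linear, from 0) of each SOX gene in each of the 14 libraries (points), by group (x axis: WT, KO, OE no Dox for the uninduced line, OE with Dox for the induced line); horizontal lines mark the mean and error bars the SD. SOX2 group means lay between 2689 and 3065, whereas SOX9 averaged 982 in KO and 1054 in the uninduced line and was at most 319 in WT and 193 in the induced line.

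In the induced line 7 of the 10 SOX genes passed as lower than in the uninduced line, and 0 as higher. SOX3, SOX9, SOX21, SOX11, SOX1, SOX5 and SOX4 fell, to between 0.126 and 0.646 of the uninduced level, while SOX2, SOX8 and SOX12 did not pass the test. Over all genes tested, 25.7% changed in this comparison, 12.8% upward and 12.9% downward (limma on log2(normalized count + 1), Benjamini-Hochberg adjusted p under 0.05). The median log2 difference over the 10 members was -1.35, against 0.02 over all genes. The uninduced and induced libraries did not overlap in any of the 7 genes that fell, against 19.5% of all genes lying wholly lower. At an unadjusted p under 0.05 the count was also 7, and edgeR and DESeq2 on the recovered reads each called 7.

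Among the SoxB1 factors, SOX3, which is expressed in neural progenitors and the ventral diencephalon, showed the greatest proportional fall of the 10. Its normalized count was 1104, 1139 and 970.0 in the uninduced libraries and 117, 237 and 49.8 in the induced ones. The highest induced library lay far below the lowest uninduced one. The log2 difference was -3.25 (SE 0.48, limma adjusted p = 0.00026). SOX1, a progenitor factor that also acts in ventral forebrain neurons, measured 703, 734 and 942 without doxycycline and 345, 197 and 285 with it. The groups did not overlap, and SOX1 fell by 1.55 on the log2 scale (SE 0.20, limma adjusted p = 1.2e-05). SOX2, the factor shared by pluripotent cells and neural stem cells, measured 2568, 3105 and 3160.2 without doxycycline and 2766, 2616 and 2684 with it. These ranges overlapped, and the log2 difference was -0.13 (95% confidence interval -0.40 to 0.15, limma adjusted p = 0.54).

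The SoxB2 gene SOX21 moved with SOX3. Its normalized count was 719.7, 536 and 662 in the uninduced libraries and 200.4, 223 and 109.7 in the induced ones, with no overlap. The log2 difference was -1.89 (SE 0.29, limma adjusted p = 0.00015).

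Of the SoxC genes, SOX11, which activates genes of neuronal differentiation, fell most. Its 3 uninduced libraries read 7859, 6096 and 6877 and its 3 induced libraries 2222, 2538 and 1798. It fell by 1.67 on the log2 scale (SE 0.16, limma adjusted p = 2.6e-07). SOX4, its close relative, read 5111, 3322 and 3855 without doxycycline and 2441, 2835 and 2660.0 with it. The ranges were separate but lay close, and SOX4 fell by 0.61 (SE 0.15, limma adjusted p = 0.0058). SOX12, the third member, was level: it averaged 1169.5 ± 188 (SD, n = 3) and 1008 ± 92.7 (SD, n = 3), with overlapping libraries and a log2 difference of -0.21 (95% confidence interval -0.51 to 0.10, limma adjusted p = 0.34).

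SOX5, the SoxD gene, read 583, 581 and 581 in the uninduced libraries and 295, 244 and 241 in the induced ones. It fell by 1.16 on the log2 scale (SE 0.13, limma adjusted p = 3.2e-06). SOX9, the SoxE gene of radial glia and cartilage, read 1069.9, 824 and 1267 without doxycycline and 134, 193 and 93.1 with it. No induced library came near the uninduced range, and SOX9 fell by 2.94 (SE 0.23, limma adjusted p = 5.9e-08). The other SoxE gene, SOX8, which has roles in glia, averaged 213 ± 19.7 (SD, n = 3) and 199 ± 80.4 (SD, n = 3). The induced libraries spanned 114 to 273, so that a difference was not detectable (log2 difference -0.18, 95% confidence interval -0.71 to 0.34, limma adjusted p = 0.65).

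In bulk RNA, fewer cells of a type and less RNA per cell cannot be told apart. Marker sums moved in the same comparison: 4 endoderm markers summed to 630 to 1121 in induced libraries and 22.9 to 129 in uninduced ones, and 8 chondrocyte and mesenchyme markers to 3379 to 8807 against 1792 to 3879. Of the 4 endoderm markers SOX17 stayed near the floor in the induced group, at 0, 3.72 and 2.77, and of the 8 mesenchyme markers ACAN was at or under it in all 3 induced libraries. Other sums fell: the 10 MGE markers to 559 to 1245 from 3386 to 5392, and 7 neural crest markers to 130 to 285 from 689 to 1094. Of the MGE markers 9 passed as lower and 0 as higher, against 12.9% and 12.8% of all genes, and GBX1 was at or under the floor in the induced group. The part of these cell types in the SOX changes was not tested. SOX10, which defines neural crest and oligodendrocyte cells, had 0 reads in all 14 libraries.

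**Figure D2:**
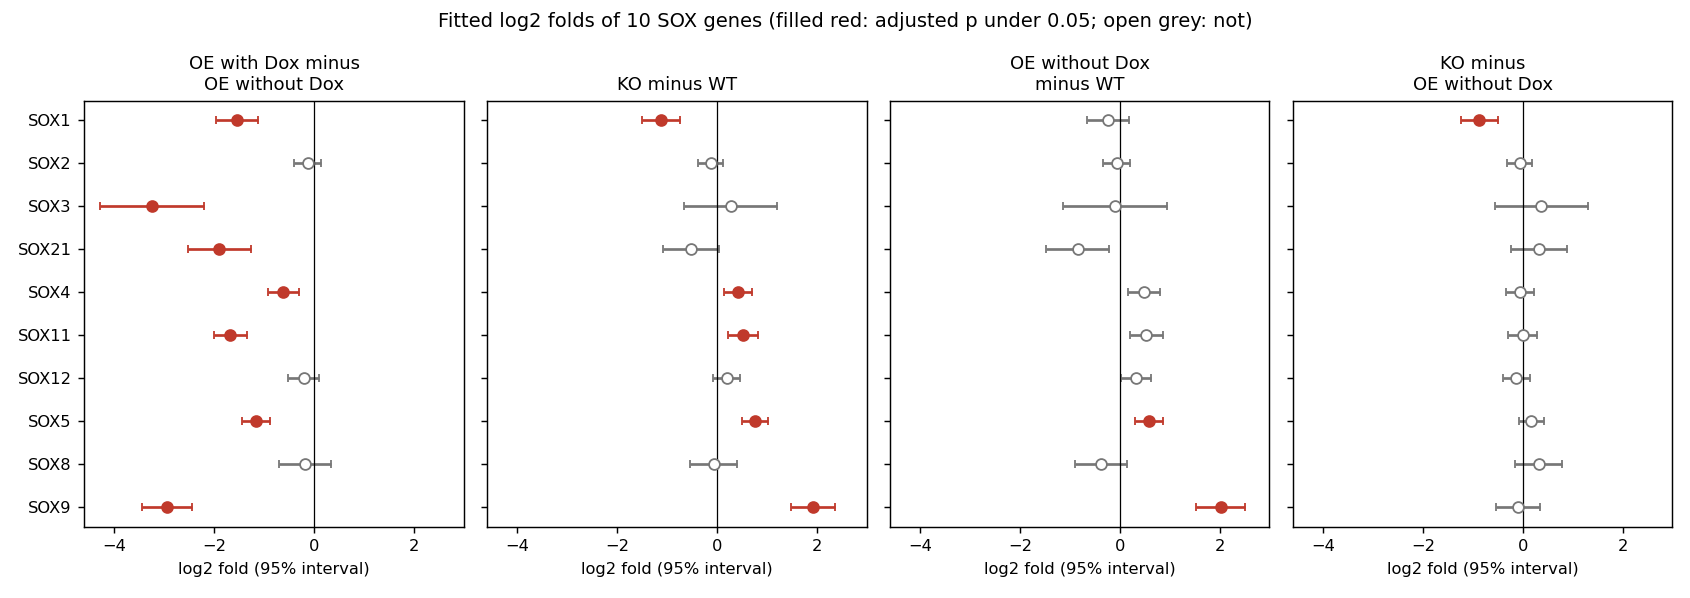
Log2 difference (x axis) of each SOX gene (rows, by SOX group) in 4 comparisons (panels): induced against uninduced, KO against WT, uninduced against WT, and KO against uninduced. Points are limma estimates and bars their 95% confidence intervals; filled red points passed the adjusted threshold of 0.05 and open grey points did not. In the induced comparison all 10 estimates lie left of 0, and 7 of them passed. SOX1 passed left of 0 for KO against either control.

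Knockout against WT moved the set in a different way: SOX9, SOX5, SOX11 and SOX4 rose and SOX1 fell, so that 5 of 10 passed the test against 13.8% of all genes (6.64% upward, 7.15% downward). The same 4 and 1 genes had no overlap between groups, against 8.61% and 9.53% of all genes. The median log2 difference over the members was 0.24, against -0.02 over all genes. SOX2, SOX3, SOX8, SOX12 and SOX21 did not pass. The 8 mesenchyme markers summed to 1971 to 2950 in WT and 1060 to 1705 in KO, with PRRX1, TWIST1 and MATN4 at or under the floor in KO. Pluripotency markers summed to 672 to 888 in WT and 383 to 660.4 in KO, with POU5F1 and NANOG at or under the floor in both, and endoderm markers to 21.8 to 69.7 and 7.16 to 13.9, with SOX17, GATA4 and GATA6 at or under the floor in KO. The MGE sums given above were higher in KO. Of the 10 MGE markers, 5 passed as higher and 1 as lower. The marker that fell was OLIG2, with a mean of 300 in WT and 165 in KO. GSX2 (119 and 81.1) and NKX6-2 (29.9 and 17.7) also had lower means in KO, without passing. The part of these differences in the SOX changes was not tested.

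SOX9 had the widest separation. It measured 319, 215 and 243 in WT and 1116, 1183, 948, 796 and 869 in KO, a mean 3.79 times that of WT. The lowest KO library lay well above the highest WT library, and the log2 difference was 1.92 (SE 0.21, limma adjusted p = 5.9e-06). SOX5 measured 353, 433 and 374 in WT and 654, 551, 683, 667 and 730.2 in KO. Its ranges were also separate, with a log2 difference of 0.76 (SE 0.12, limma adjusted p = 0.00022).

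The SoxC rise was smaller. SOX11 measured 5897, 4682 and 3973 in WT and 8091, 7039, 6471, 6533 and 6435 in KO, and SOX4 measured 3264, 2927 and 2553 against 3603, 3828, 4641, 4019 and 3428. In both genes each KO library exceeded each WT library, by little in SOX4 between its nearest libraries. The log2 differences were 0.52 for SOX11 (SE 0.14, limma adjusted p = 0.015) and 0.42 for SOX4 (SE 0.14, limma adjusted p = 0.047). The SOX4 call was lost in 6 of 8 fits that each left out 1 WT or KO library, namely WT 2 and 3 and KO 1, 2, 3 and 4, with adjusted p up to 0.24. The SOX11 call was lost without WT 2 (limma adjusted p = 0.056) or WT 3 (limma adjusted p = 0.13).

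SOX1 went the other way. It measured 1069.7, 826 and 916 in WT and 429.5, 514, 519.6, 345 and 371 in KO, a mean 0.465 of WT. No KO library reached the WT range, and SOX1 fell by 1.11 on the log2 scale (SE 0.18, limma adjusted p = 0.00027). Its SoxB1 relatives differed from it in pattern: SOX2 averaged 3065 ± 115 (SD, n = 3) in WT and 2829 ± 391 (SD, n = 5) in KO, and SOX3 1174 ± 359 (SD, n = 3) and 1456 ± 514 (SD, n = 5). SOX3 varied most within the KO group, with 987, 1446, 915, 1859.5 and 2074, the last pair being replicates 4 and 5. Its log2 difference from WT was 0.28 (95% confidence interval -0.65 to 1.21, limma adjusted p = 0.76).

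SOX21 measured 1805, 725 and 1131 in WT and 747, 797, 618, 863 and 992 in KO. WT 1 and WT 3 lay above the KO range and WT 2 within it, and the difference was not resolved (log2 difference -0.52, 95% confidence interval -1.08 to 0.04, limma adjusted p = 0.24). Without WT 2 SOX21 passed as lower in KO (log2 difference -0.85, limma adjusted p = 0.040). WT 1 held the highest value of its group in 8 of the 10 members. SOX12 averaged 933 ± 126 (SD, n = 3) in WT and 1065 ± 103 (SD, n = 5) in KO, and SOX8 280.4 ± 61.4 (SD, n = 3) and 267 ± 44.03 (SD, n = 5). Their libraries overlapped, with limma adjusted p of 0.40 and 0.91.

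The uninduced line, which was not a knockout, differed from WT in some of the same genes. SOX9 averaged 1054 ± 222 (SD, n = 3) there against 259 ± 54.0 (SD, n = 3) in WT, a log2 difference of 2.02 (limma adjusted p = 6.9e-05), and SOX5 582 ± 0.806 (SD, n = 3) against 387 ± 41.7 (SD, n = 3), a log2 difference of 0.59 (limma adjusted p = 0.013). These 2 of 10 passed, against 5.74% of all genes (3.43% upward, 2.32% downward). SOX11 (log2 difference 0.53, limma adjusted p = 0.054) and SOX4 (0.47, limma adjusted p = 0.077) had separate ranges without passing. With the replicate number as a block, SOX11 passed (limma adjusted p = 0.025). It also passed under TMM scaling (limma adjusted p = 0.041) and without WT 1 or uninduced 2, SOX4 passed without uninduced 2, and SOX21 passed as lower without WT 2 (log2 difference -1.17, limma adjusted p = 0.025). Counting ranges alone, 4 members lay wholly higher and SOX21 wholly lower, against 11.6% and 11.4% of all genes. The SOX5 call was lost without WT 3 or without uninduced 1 (limma adjusted p = 0.056 in each).

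KO and uninduced values, which share the WT controls in the comparisons above, were therefore also set against each other. SOX9 averaged 982 ± 164 (SD, n = 5) in KO, and its log2 difference from the uninduced line was -0.09 (95% confidence interval -0.54 to 0.35, limma adjusted p = 0.98). The intervals were -0.30 to 0.29 for SOX11, -0.34 to 0.23 for SOX4 and -0.08 to 0.42 for SOX5. A KO level higher than the uninduced level was thus not detectable for any of the 4 genes that rose against WT. SOX1 was the 1 member of 10 that passed, against 2.11% of all genes (1.75% downward, 0.351% upward). Its uninduced values of 703, 734 and 942 all exceeded the KO values, as was so for 4.39% of all genes, and the log2 difference was -0.87 (SE 0.18, limma adjusted p = 0.012). That call was lost without uninduced 3 (log2 difference -0.74, limma adjusted p = 0.098) and without KO 4 and 5 together (-0.69, limma adjusted p = 0.10).

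SOX1 was thus lower in KO than in either control, and lower in the induced line than in the uninduced line. The induced libraries were also lower than WT in SOX1, with a log2 difference of -1.79 (limma adjusted p = 2.9e-06). Against WT, 6 members passed as lower in the induced line, SOX1, SOX3, SOX5, SOX9, SOX11 and SOX21, and 0 as higher, against 20.5% of all genes (10.1% downward, 10.4% upward); edgeR and DESeq2 each called 6, and 7 passed at an unadjusted p under 0.05. SOX21 fell by 2.74 on the log2 scale and SOX3 fell by 3.34. SOX2 was lower in all 3 induced libraries than in WT, the seventh member without overlap against 15.4% of all genes, but did not pass (log2 difference -0.19, limma adjusted p = 0.37). SOX9, which was far below the uninduced line, was below WT by less, with a log2 difference of -0.92 (limma adjusted p = 0.0083), and this call was lost without induced 3 (log2 difference -0.66, limma adjusted p = 0.050). SOX4 averaged 2645 ± 197 (SD, n = 3) in the induced line and 2915 ± 356 (SD, n = 3) in WT, which overlapped (log2 difference -0.14, limma adjusted p = 0.61).

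The effect of induction minus the effect of knockout against WT was tested directly. Each effect had its own control, the uninduced line or WT, so a difference between these controls enters the result. Uninduced against WT, the log2 difference was 2.02 for SOX9, 0.59 for SOX5, 0.53 for SOX11 and 0.47 for SOX4. It was -0.09 for SOX3 and -0.84 for SOX21. The values below are therefore not opposite effects measured from a shared baseline. SOX9 (log2 difference of the effects -4.87, limma adjusted p = 5.5e-09), SOX3 (-3.53, limma adjusted p = 0.0011), SOX11 (-2.20), SOX5 (-1.92), SOX21 (-1.37, limma adjusted p = 0.015) and SOX4 (-1.03, limma adjusted p = 0.00079) differed between the effects, 6 of 10, all negative, against 28.8% of all genes (13.6% negative, 15.1% positive). SOX1 did not (-0.43, 95% confidence interval -0.999 to 0.14, limma adjusted p = 0.26), which does not show that its falls were equal. SOX2 gave 0.00 (95% confidence interval -0.37 to 0.37).

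**Figure D3:**
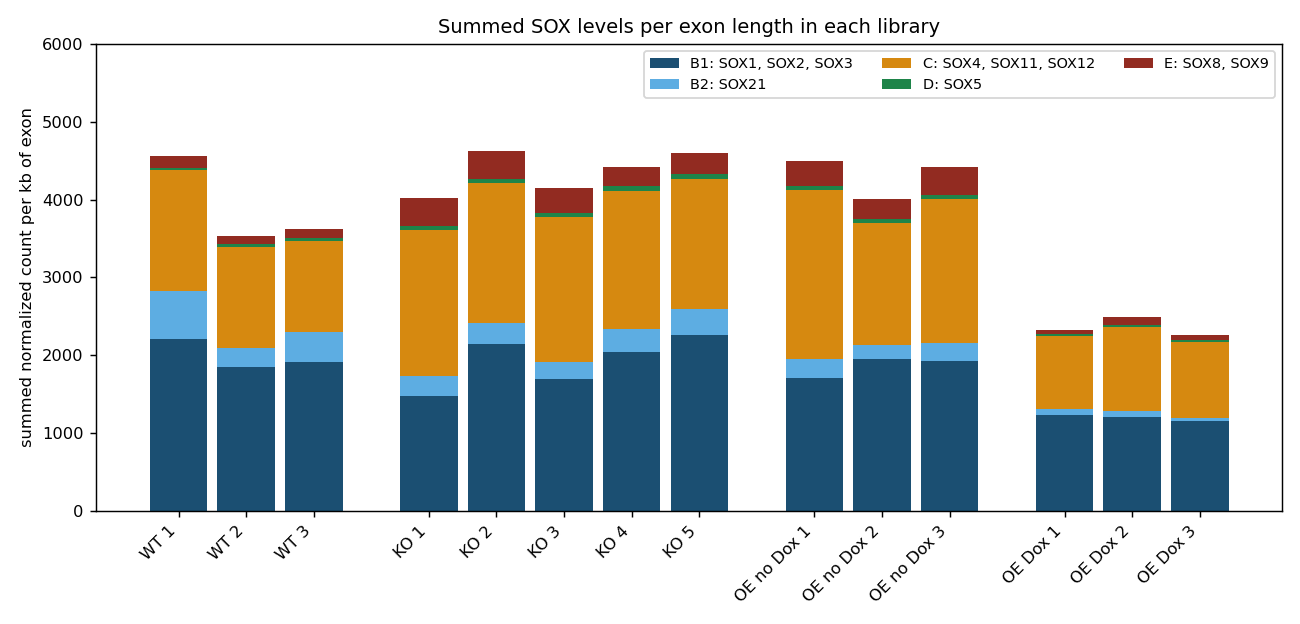
Summed normalized count per kb of merged exon (y axis, linear, from 0) in each library (x axis, by group and replicate), stacked by SOX group: SoxB1, SoxB2, SoxC, SoxD and SoxE. The 3 induced libraries reached 2261 to 2494 in all, below the 3530.3 to 4620 of the other libraries.

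Levels were compared between genes per kb of merged exon in GENCODE 44, since the genes differ in length. SOX2 was the highest of the 10 in each group, at 1220.3 ± 45.6 normalized counts per kb in WT (SD, n = 3) and 1070.3 ± 29.8 in the induced line (SD, n = 3). In WT it was followed by SOX4 at 599 per kb, SOX3 at 563, SOX11 at 539 and SOX21 at 417, whose neighbours overlapped in range. SOX1 at 206 and SOX12 at 199.6 overlapped next, then SOX9 at 65.9 and SOX8 at 62.7, and SOX5 was lowest at 34.3. SOX5 spreads over 23 annotated transcripts and 11289 merged exon bases, so its level per kb depends on the isoforms used.

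The order changed with the groups. In KO, SOX4 (802 per kb), SOX11 (768) and SOX3 (698) followed SOX2 with overlapping ranges, SOX9 (249.9) stood beside SOX21 (275) and SOX12 (228), and SOX1 (95.6) dropped below them without overlap. In the uninduced line SOX9 (268), SOX12 (250.3), SOX21 (219) and SOX1 (174) overlapped as neighbours. In the induced line SOX2 was followed by SOX4 (543), SOX11 (243) and SOX12 (216), and the ranges of SOX3, SOX21, SOX1, SOX8, SOX9 and SOX5 then overlapped from each to the next, from 64.6 down to 23.1.

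The sum of the 10 members per kb was 3906 ± 572 in WT, 4361 ± 272 in KO, 4308 ± 265 in the uninduced line and 2361 ± 120.1 in the induced line (SD, n = 3, 5, 3 and 3). SOX2 made up 61.7% ± 6.41 of the SoxB1 sum in WT, 59.2% ± 6.64 in KO, 62.9% ± 2.70 in the uninduced line and 89.6% ± 2.82 in the induced line. SOX3 made up 28.0%, 35.7%, 27.8% and 5.37% in the same order. The SOX2 share was thus above all other libraries in each induced library, at 86.9% to 92.5%. Within SoxC, the SOX11 share was 40.1% ± 2.19, 42.7% ± 3.51, 41.6% ± 1.46 and 24.2% ± 3.24. These shares restate the single-gene changes in proportion and were not tested.

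**Figure D4:**
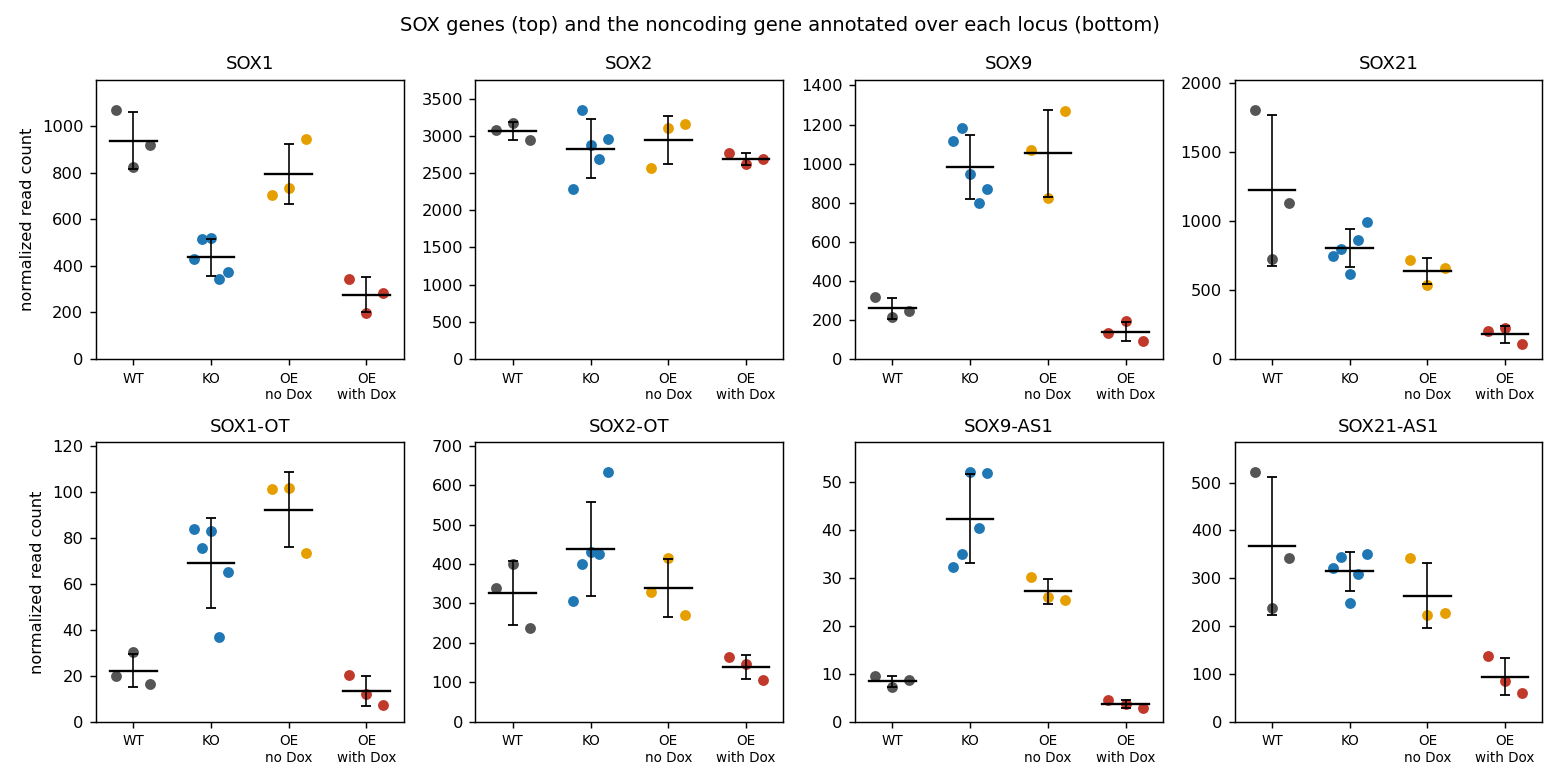
Normalized count (y axis, linear, from 0) of 4 SOX genes (top row) and the noncoding gene annotated over each locus (bottom row) in each library (points) by group, with horizontal lines for the mean and error bars for the SD. SOX1-OT averaged 68.98 in KO and 92.2 in the uninduced line against 22.2 in WT and 13.3 in the induced line.

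Noncoding genes that overlap SOX loci were read beside the members; 4 of the 5 named for a member passed the filter. All 4 fell with induction, as did 12.9% of all genes tested. SOX2-OT, within which the SOX2 gene lies, averaged 339 ± 72.7 (SD, n = 3) without and 138 ± 30.1 (SD, n = 3) with doxycycline, a log2 difference of -1.29 (limma adjusted p = 0.00068), whereas SOX2 did not pass. SOX21-AS1 averaged 264 ± 67.7 (SD, n = 3) and 94.0 ± 38.8 (SD, n = 3), a log2 difference of -1.53 (limma adjusted p = 0.00064), a fall shared with SOX21. SOX9-AS1 read 30.2, 25.9 and 25.4 without and 4.62, 3.72 and 2.77 with doxycycline, the last at the floor of 3 reads. Its log2 difference was -2.60 (limma adjusted p = 1.8e-06).

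Against WT, SOX9-AS1 and SOX1-OT rose in KO and in the uninduced line, where 6.64% and 3.43% of all genes rose. SOX9-AS1 averaged 8.43 in WT, 42.3 in KO and 27.2 in the uninduced line (log2 differences from WT 2.18 and 1.58, limma adjusted p = 1e-05 and 0.0027). SOX1-OT, on the same strand as SOX1, read 19.9, 30.4 and 16.5 in WT and 84.1, 75.5, 83.1, 36.8 and 65.3 in KO, a log2 difference of 1.58 (limma adjusted p = 0.0018). SOX1-OT was thus higher in KO while SOX1 was lower. In the merged annotation these genes share no exon bases with their SOX gene. Exon overlap was limited to 168 bases of SOX4 with an opposite-strand gene at 0 reads and 74 bases of SOX11 (0.82%) with ENSG00000242540, which averaged 9.71 in WT and 4.01 in the induced line. Whether the counting used strand is not given in the sources used here. The longest identical stretch between member transcripts was 89 bases, in SOX1 and SOX2, and SOX21 shared 60 bases with each of them. Reads wholly inside such a stretch cannot be told apart by sequence. How they were counted is not given in the sources used here.

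Of 9 further SOX genes, 4 passed the filter. SOX6, a SoxD gene like SOX5, averaged 373 ± 29.9 (SD, n = 3) in WT, 638 ± 118 (SD, n = 5) in KO, 662 ± 249.8 (SD, n = 3) in the uninduced line and 169.5 ± 16.5 (SD, n = 3) in the induced line. It rose in KO against WT (log2 difference 0.75, limma adjusted p = 0.013) and fell with induction (-1.90, limma adjusted p = 3e-06), as SOX5 did. SOX13, the remaining SoxD gene, had the opposite pattern. It averaged 429 ± 44.1 (SD, n = 3) in WT, 259.98 ± 62.4 (SD, n = 5) in KO, 253 ± 57.0 (SD, n = 3) uninduced and 690.3 ± 155 (SD, n = 3) induced, with log2 differences of -0.75 for KO against WT (limma adjusted p = 0.016) and 1.44 for induction (limma adjusted p = 8.9e-05). SOX14 and SOX15 were low and passed in no comparison.

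A list of 17 reported SOX targets and partners, 16 of them tested, was read beside the members. In KO against WT 4 rose (DCX, NOTCH1, NFIA, NFIB) and 2 fell (JAG1, POU3F2), 6 of 16 against 13.8% of all genes, and the list's median log2 difference was -0.22. With induction 1 rose (NFIA) and 7 fell (DCX, NES, NOTCH1, TUBB3, POU3F3, COL9A1, COL11A2), 8 of 16 against 25.7% of all genes, with a median of -0.31. NES, the progenitor intermediate filament regulated by SOX and POU factors, averaged 8156 without and 1536 with doxycycline, a log2 difference of -2.45 (limma adjusted p = 4.7e-08), and 8313 in WT and 8327 in KO (log2 difference -0.02, limma adjusted p = 0.97). NFIA, a glial switch factor downstream of SOX9, averaged 9.51 in WT, 52.3 in KO and 46.0 in the uninduced line, and 473 in the induced line where SOX9 was low. DCX, a microtubule protein of migrating neurons, averaged 2513 in WT, 6174 in KO, 5429 uninduced and 866 induced. In KO against the uninduced line 0 of the 16 passed by limma, against 2.11% of all genes, 4 were lower at an unadjusted p under 0.05, and edgeR and DESeq2 each called 0.

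The neuron list rose in 11 of 12 genes and fell in 0 in KO against WT, where 6.64% of all genes rose and 7.15% fell (limma; at an unadjusted p under 0.05, and by edgeR and by DESeq2, 12 rose and 0 fell), with a median log2 difference of 0.88. The uninduced line was also higher than WT in 7 of 12 neuron genes and lower in 0, with a median of 0.79. Over all genes 3.43% rose and 2.32% fell there. In KO against the uninduced line limma and edgeR each called 0 of the 12, against 2.11% of all genes. DESeq2 called 1 as higher, and 3 were higher at an unadjusted p under 0.05. With induction 11 of 12 fell and 1, GAP43, rose, against 12.9% and 12.8% of all genes, with a median of -1.72. The progenitor list had 1 gene higher and 6 lower of 12 in KO against WT, and 2 higher and 8 lower with induction. It had 1 higher and 4 lower in the uninduced line against WT. In KO against the uninduced line it had 0 higher and 3 lower, against 0.351% and 1.75% of all genes.

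Across the 14 libraries, the genes most like each member were named by Pearson correlation of log2 values among 9344 candidates with a mean count of at least 100. For SOX3 the first was LZTS3 (r = 0.99), for SOX9 the genes were NOTCH1 (0.98) and PAK3 (0.97), for SOX11 KCNN3 and GAREM2 (0.98 each), for SOX5 DGKI and MMP24 (0.98 each), and for SOX4 DCLK2 (0.95) and SLITRK2 (0.92). SOX1 was followed by HMGB2 and HES6 (0.92 each) and SOX21 by SOX21-AS1 (0.97) and SSBP3P1 (0.96). Likeness was weaker for SOX12 and SOX2, which passed in no comparison: 0.87 for SOX12 with PRR12 and 0.80 for SOX2 with USP37. The libraries fall into 4 groups, and all genes of a library share its size factor, so these values mostly describe group patterns. Among the members, SOX3 and SOX21 had r = 0.94 over the 14 libraries and 0.82 after group means were removed, whereas SOX5 and SOX9 had 0.92 and -0.38.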

How the data were processed

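RNA from 14 libraries (500 ng total RNA, NEBNext Ultra, per the labels' protocols) was processed by the authors with TopHat2 2.1.1, HTSeq 0.9.1, R 3.4.0 and DESeq2 on hg38, per the submitters' processing notes. Annotation release and strand setting are not given in the sources used here. The deposited values are a signal: read counts that the authors divided by 1 size factor per library. Whole reads were recovered from all values (100.0% within 0.01), and 0 columns of sample values went unused. Identifiers were named from GENCODE 44, which matched 56948 of 58051.

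Here limma 3.58.1 (R 4.3.3, trend, robust) was fitted to log2(normalized count + 1) of 17102 genes over all 14 libraries and 4 groups, leaving 10 residual degrees of freedom. Tests were two-sided, with Benjamini-Hochberg adjustment within each of 6 comparisons and a threshold of 0.05. Fold changes on this scale understate the change of low genes. The floor of 3 reads covers counting error only. edgeR 4.0.16 and DESeq2 1.42.0 ran on the recovered reads as alternatives, beside other pseudocounts, filters, TMM scaling, a replicate block and leaving out each library. The fit was tested on simulated data. Members, gene lists and promoters shown were chosen with earlier results of these data known. Named genes were all members, other SOX genes and locus noncoding genes past the filter, the 2 genes most correlated with each member (some are not reported here), and the lists' called genes of lowest adjusted p where a result turned on them. NFIA, GAP43 and the full names behind counts of the target list were chosen after their values were seen.

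Samples with the same replicate number deviated together in uninduced and induced pairs (r = 0.22, 0.248 and 0.402) and in WT and uninduced pairs (0.222, 0.175 and 0.283), all over 0.1. Not all were over 0.1 in WT and induced (0.056, 0.037 and 0.25), KO and uninduced (0.221, 0.049 and 0.102) or KO and WT (0.237, -0.289 and 0.127). Libraries with unlike numbers reached 0.435 (WT 1 and KO 2). These values therefore do not settle whether the numbers pair the groups. The main fit used group means only and took no account of any pairing, unlike the replicate block.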

Additional observations from a re-analysis of the deposited data

Results flagged for a closer look

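SOX14 in KO replicate 5 stood apart from its group, with a normalized count of 98.4 against 2.83 to 29.3 in the other 4 KO libraries; its gap to the nearest was 0.723 of the group's range. It was the 1 of 20 genes looked at in the KO group to do so, and chance flags about 1 in 20.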

How the results depend on the processing

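No direction of a called member reversed in the alternatives run: of 1100 refitted log2 differences of the members, 1038 kept direction and side of the threshold, 18 lost and 13 gained the call, and the 31 that reversed were not called to begin with. Uninduced against WT gave 4 members with no filter and 5 with DESeq2 (2 as reported). KO against uninduced gave 0 under the replicate block and 0 without KO 4 and 5 together, an alternative added after the data were seen. In that block fit KO 4 and 5 carry no information on group differences. The block changed no other call than SOX11 in uninduced against WT, SOX4 in KO against WT (limma adjusted p = 0.066) and SOX1 in KO against uninduced (limma adjusted p = 0.055). Leaving out each library gave 3 to 5 members for KO against WT (3 without WT 3), 1 to 4 for uninduced against WT (1 without WT 3 or uninduced 1, 4 without uninduced 2) 0 to 1 for KO against uninduced (0 without uninduced 3) and 5 to 7 for induced against WT (5 without induced 3; 7 without induced 2, where SOX8 gained the call at a log2 difference of -0.84, limma adjusted p = 0.024). It gave 421 to 869 genes of all for uninduced against WT (982 as reported; 479 without WT 3, 421 without uninduced 1, 548 without uninduced 3) and 180 to 353 for KO against uninduced (360 as reported; 180 without uninduced 2). Log2 differences that reversed were those of SOX2 in the difference of effects (-0.0357 under TMM, -0.0529 by edgeR, -0.0318 by DESeq2), and, both under the block and without KO 4 and 5, SOX3 (-0.0578) and SOX8 (0.0865) in KO against WT and SOX9 (0.0545) and SOX11 (0.0539) in KO against uninduced. Leaving out single libraries, the ranges that crossed 0 were those of SOX8 in KO against WT (-0.21 to 0.10), induced against uninduced (-0.46 to 0.17) and the difference of effects (-0.40 to 0.23), of SOX2 in KO against uninduced (-0.16 to 0.0122), uninduced against WT (-0.12 to 0.0318) and the difference of effects (-0.0943 to 0.0652), of SOX3 in uninduced against WT (-0.31 to 0.13), and of SOX4 (-0.19 to 0.12), SOX9 (-0.26 to 0.0494) and SOX11 (-0.0942 to 0.089) in KO against uninduced. SOX21 lost its call in the difference of effects with no filter (limma adjusted p = 0.065), and SOX4 in KO against WT without the robust option (limma adjusted p = 0.056). The cause was not tested. With 3 to 5 libraries a group, differences near the spread between libraries could not be resolved.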
